A study of Mus musculus with 96 samples.

Results

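The insulin-like growth factor (IGF) axis was followed here through 10 genes: the ligands Igf1 and Igf2, the receptor Igf1r, the binding proteins Igfbp2, Igfbp3, Igfbp4, Igfbp5 and Igfbp6, and the receptor substrates Irs1 and Irs2. They were found by gene symbol, as named parts of the axis, and all 10 were among the 15895 rows of the expression table. The cells were primary fibroblasts that had been cultured from CF-1 mouse embryos at day 13. All cultures were held for 36 h in medium with 0.5% fetal calf serum, and serum was then raised to 20% at 0 h. RNA was sequenced in 2 time courses, called Cycle 1 and Cycle 2, with 1 library per time and Cycle. The starved group held the libraries at -1 h and 0 h of both Cycles, 4 in all, and each serum group held the libraries of 1 hour, with 29 hours sampled in both Cycles between 1 h and 27 h. Cycle 1 alone continued from 28 h to 38 h. Starvation synchronizes such cells in part only, so each library is an average over cells at different points of the cycle.

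In the IGF axis, IGF1 and IGF2 bind the receptor tyrosine kinase encoded by Igf1r. The activated receptor phosphorylates the adaptor proteins IRS1 and IRS2, which recruit PI3-kinase and so connect it to AKT and mTOR. The binding proteins are secreted, hold IGFs outside the cell and can limit or prolong their action. Mesenchymal cells of the embryo make IGF2 in large amounts, and IGFs are among the factors that carry fibroblasts from rest into S phase.

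Values are normalised read counts, that is, reads on the exons of a gene scaled to 10000000 per library, and ranges over a window of hours are over the hours that both Cycles share. The depth recovered from the size of 1 read ran from 5067431 to 52607857 reads, and the smallest value of a member still stood for 26.8 reads. In 7 libraries of Cycle 1, the balance of long against short transcripts was more than 0.5 below the average on the log2 scale, and 0 libraries of Cycle 2 were. The Cycle 2 library at 20 h stood apart in another way: of 35 well expressed genes whose mean at 19 h and 21 h was at least 8 times below starved cells, 34 read higher at 20 h than that mean, with a median ratio of 1.47. Those genes were selected for low neighbours, and over all 9112 well expressed rows 5124 read higher at 20 h, with a median ratio of 1.02. Fibroblast markers were all found, 11 of 11, with a summed level of 405521 to 570822 in the starved libraries and 190217 to 539249 after serum. The summed level of 6 endothelial markers was 217 to 292 in starved cells and 49.0 to 283 after serum, that of 6 epithelial markers 136 to 337 and 40.9 to 739, and that of 6 macrophage markers, led by Lyz2, 1118 to 3398 and 499 to 4782. It was 391 to 1097 and 55.3 to 746 for skeletal muscle (5 markers), 340 to 398 and 131 to 552 for nerve (4), 217 to 407 and 181 to 1197 for cartilage (3), and 1.65 to 4.77 and 0 to 6.24 for red cells (1). The part of these cells in the results was not tested. In bulk RNA, fewer cells that express a gene and less RNA per cell cannot be told apart.

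Both ligands and 4 of the 5 binding proteins were lower after serum, and Irs1 dropped within the first hours. In the fit over the hours that both Cycles share, the receptor itself moved by less than 1 on the log2 scale. At 34 h, sampled in Cycle 1 only, the receptor read 2.02 times its starved mean. Over the 29 shared hours, 8 of 10 members changed by more than 1 on the log2 scale at some hour with an adjusted p under 0.05 in the F test of limma. For 7 of them the largest change was a fall, against 37% of all rows that fell by this rule, and for 1 of them, Irs2, it was a rise, against 15.5%. The direction of Irs2 turned, with the largest change then a fall at 14 h, against the 0 h libraries alone (-2.03), in edgeR (-1.32) and without the -1 h library of Cycle 1 (-1.51) or of Cycle 2 (-1.57). At 14 h Irs2 read 38.2 in Cycle 1, its lowest value there, and 154 in Cycle 2. That Cycle 1 library was among those poor in long transcripts, at -0.63 on the log2 scale. The part of this balance in the fall was not tested. The median over the 10 members of the largest change was -2.21, and over all rows it was -0.88. Igf1r and Igfbp6 moved by less than 1. The hours were then averaged in 4 windows. At 1 to 3 h, 1 of 10 members was lower than in starved cells (11.8% of all rows) and 0 were higher (5.3%). Over all rows this was 1870 lower and 843 higher, and with TMM scaling factors 1136 and 1131. At 4 to 10 h, 3 were lower (17.9%) and 0 higher (7.28%). At 11 to 18 h, 5 were lower (16.8%) and 0 higher (6.81%), and at 19 to 27 h, 5 were lower (18.7%) and 0 higher (6.66%). The member at 1 to 3 h was Irs1, joined at 4 to 10 h by Igf1 and Igfbp5 and at 11 to 18 h by Igfbp3 and Igfbp4, while at 19 to 27 h Igf2 was called and Irs1 no longer was. Nothing in the sources used here says that the 2 Cycles came from separate cell preparations, so the p-values measure the spread between these libraries.

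**Figure D1:**
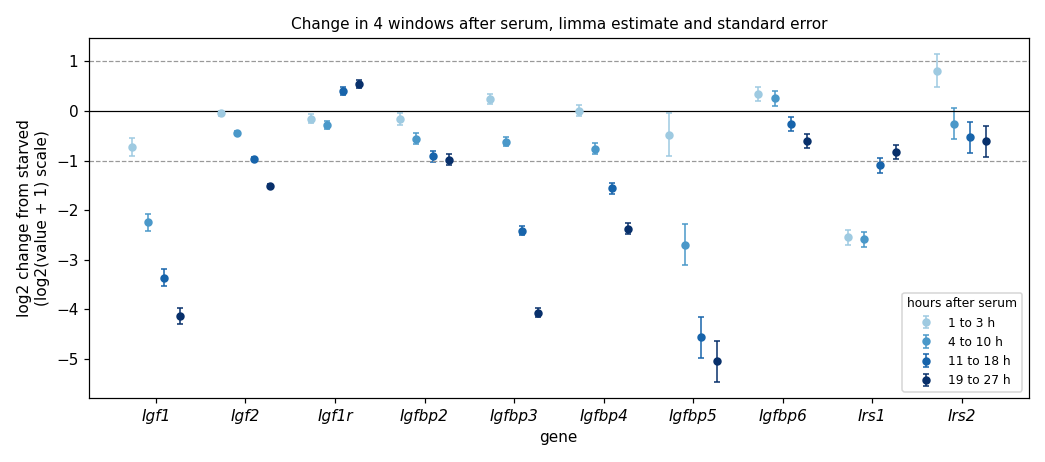
Log2 change of each of the 10 genes from the starved libraries in 4 windows of hours after serum, on the log2(value + 1) scale, with both Cycles in one limma fit. Points are estimates, bars are standard errors and dashed lines mark a change of 1 in either direction. Igf1, Igfbp3, Igfbp4 and Igfbp5 stepped down from window to window to between -2.37 and -5.06, whereas Irs1 was lowest in the opening windows.

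Igf1, which encodes the ligand that also circulates under control of growth hormone, fell early and far. It lies on chromosome 10 (87321010-87399792, plus strand, NCBIM37). In Cycle 1 it read 2465 at -1 h and 2490 at 0 h, then 1876 at 1 h, 922 at 3 h and 305 at 10 h. In Cycle 2 it read 1305 and 1121 before serum, 1137 at 1 h, 608 at 3 h and 232 at 10 h. From 2.5 h in Cycle 1 and 4 h in Cycle 2, every later library was below 0.5 of the starved mean of its Cycle. At 19 to 27 h the lowest, median and highest values were 47.2, 96.3 and 130 in Cycle 1 and 84.0, 97.8 and 170 in Cycle 2, far below all starved libraries. The log2 change was -0.72 (SE 0.18) at 1 to 3 h, -2.24 (SE 0.17) at 4 to 10 h, -3.37 (SE 0.17) at 11 to 18 h and -4.14 (SE 0.17) at 19 to 27 h, the last with adjusted p = 9.37e-20 in limma. The 2 lowest libraries, 46.5 at 24.5 h and 47.2 at 26 h of Cycle 1, had a surplus of GC-rich over GC-poor transcripts of 1.43 and 0.47 on the log2 scale. The highest value of that window, 170, came from the Cycle 2 library at 20 h.

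Igf2, the imprinted fetal ligand, was the most abundant member and declined slowly and evenly. Its position is chromosome 7 (149836673-149852721, minus strand, NCBIM37). Before serum it read 68461 and 65982 in Cycle 1 and 34309 and 31891 in Cycle 2, so the Cycles differed by 2.03-fold from the start. Per kilobase of its longest annotated coding transcript this was a level of 14236 in Cycle 1 and 7010 in Cycle 2. For comparison, the level per kilobase of Igf1 was 348 and 170. At 1 to 3 h the change was -0.05 (SE 0.05). It then went through -0.45 (SE 0.04) and -0.97 (SE 0.04) to -1.51 (SE 0.04) at 19 to 27 h, with adjusted p = 2.96e-24 in limma. The last shared library, at 27 h, read 20354 in Cycle 1 and 10749 in Cycle 2. Between 4 h and 24 h the slope of the log2 value was -0.0682 per hour (SE 0.00098) in Cycle 1 and -0.0669 per hour (SE 0.00175) in Cycle 2. These slopes amount to a halving in 14.7 h and 15.0 h. For Igf1 the same fit gave 7.32 h and 9.22 h. The slopes were computed after the courses had been seen, and their errors treat hours as independent.

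Igf1r, the receptor through which both ligands signal, went down and then up. The gene is on chromosome 7 (75097713-75371484, plus strand, NCBIM37). It read 833 and 827 before serum in Cycle 1 and 1086 and 979 in Cycle 2. The lowest values were 465 at 5.5 h of Cycle 1 and 571 at 5 h of Cycle 2, both below all starved libraries. Both came from libraries with a low balance of long against short transcripts, -0.45 and -0.25 on the log2 scale. The part of this balance in the lowest values was not tested. At 4 h, where the balance was 0.23 and 0.19, Igf1r read 531 and 691, also below all starved libraries. With each library's trend over transcript length and GC content removed, the mean change at 4 to 10 h was -0.29. From 11 h on, all 16 shared libraries up to 18 h lay between 930 and 1415, and at 24 h the receptor read 1494 and 1576. The change was -0.73 (SE 0.13, adjusted p = 1.49e-05 in limma) at 5 h and 0.73 (SE 0.13, adjusted p = 1.9e-05) at 24 h. As window means, it was -0.28 (SE 0.08) at 4 to 10 h and 0.54 (SE 0.08) at 19 to 27 h, so no window reached 1. The dip and the later rise were seen in both Cycles, and the largest difference between them in a window was 0.08 (SE 0.25, adjusted p = 0.947 in limma).

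**Figure D2:**
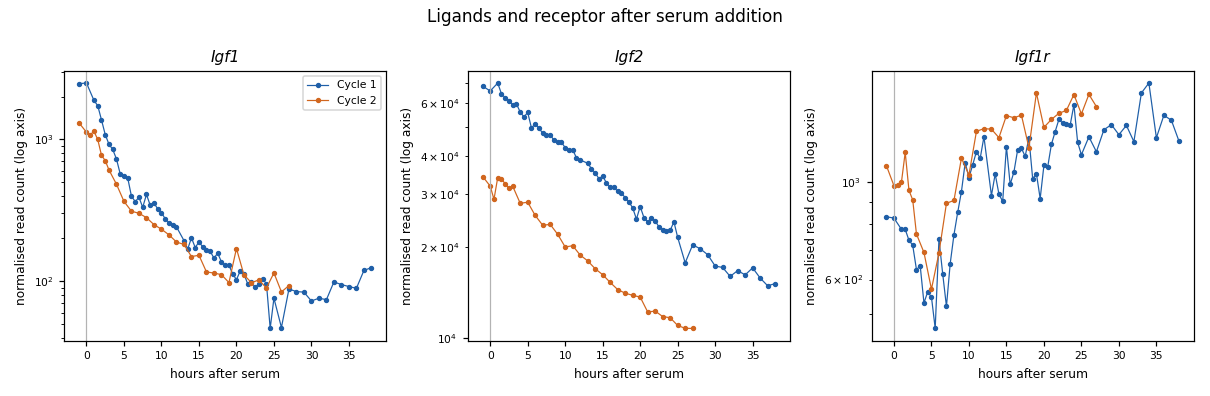
Normalised read count of Igf1, Igf2 and Igf1r in every library against hours after serum, on log axes. Each point is 1 library, Cycle 1 in blue and Cycle 2 in orange, and the grey line marks serum addition. Igf1 fell below 0.1 of its starved level, Igf2 followed 2 parallel lines 2.03-fold apart at the start, and Igf1r dipped near 5 h before it rose.

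Igfbp3, whose protein carries most of the IGF in blood and binds IGF1 and IGF2 about equally, was the steepest of the steady declines. The gene is on chromosome 11 (7106089-7113926, minus strand, NCBIM37). The starved values were alike in both Cycles, 16497 and 15476 in Cycle 1 and 16909 and 16963 in Cycle 2. It read 21135 at 2 h of Cycle 1 and 19959 at 2.5 h of Cycle 2, its highest values, and the mean change at 1 to 3 h was 0.25 (SE 0.10, adjusted p = 0.0345 in limma), short of the size required. The fall crossed 0.5 of the starved mean at 9 h in both Cycles and did not return. At 19 to 27 h the lowest, median and highest values were 593, 806 and 1344 in Cycle 1 and 783, 1083 and 1891 in Cycle 2. The log2 change was -2.42 (SE 0.09) at 11 to 18 h and -4.07 (SE 0.09) at 19 to 27 h, where adjusted p was 6.56e-27. Its level halved every 4.16 h in Cycle 1 and every 4.78 h in Cycle 2 between 4 h and 24 h.

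Igfbp4, an inhibitor of IGF action that is cleaved by the protease PAPP-A, followed at a slower pace. Its position is chromosome 11 (98902558-98913969, plus strand, NCBIM37). It read 12951 and 12008 before serum in Cycle 1 and 8014 and 7976 in Cycle 2. At 1 h it was above its starved libraries in both Cycles, at 15867 and 9685, a change of 0.31 (SE 0.16, adjusted p = 0.27 in limma). At 19 to 27 h it lay between 1708 and 2855 in Cycle 1 and between 1392 and 3159 in Cycle 2, below every starved value. The change was 0.00 (SE 0.11) at 1 to 3 h, -0.76 (SE 0.11) at 4 to 10 h, -1.56 (SE 0.11) at 11 to 18 h and -2.37 (SE 0.11) at 19 to 27 h, the last with adjusted p = 7.21e-19 in limma. The highest value of Cycle 2 in that window was again the library at 20 h, where Igfbp4 read 1.55 times the mean of its neighbours.

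Igfbp5, a binding protein found in the matrix of mesenchymal tissue, had the largest change of the 10 in the fit over both Cycles, and in Cycle 1. In Cycle 2 alone Igfbp3 changed by -3.89 at 19 to 27 h and Igfbp5 by -3.69. It lies on chromosome 1 (72904506-72921458, minus strand, NCBIM37), next to Igfbp2 (72871077-72899048, plus strand). The Cycles began far apart, at 17934 and 18070 in Cycle 1 and 5263 and 4978 in Cycle 2, a ratio of 3.52. By 10 h they read 705 and 668. At 19 to 27 h the values were 169 to 247 with a median of 216 in Cycle 1, and 271 to 1225 with a median of 342 in Cycle 2. The lowest value of all, 156 at 19.5 h of Cycle 1, was 115-fold below the starved mean, and the lowest of Cycle 2, 271 at 23 h, was 18.9-fold below. The change was -2.70 (SE 0.41) at 4 to 10 h, -4.57 (SE 0.41) at 11 to 18 h and -5.06 (SE 0.40) at 19 to 27 h, with adjusted p = 1.43e-12 in limma. The value of 1225 belongs to the Cycle 2 library at 20 h, which read 3.88 times the mean of its neighbours. Without that library the change at 19 to 27 h was -5.20.

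Igfbp2 and Igfbp6 were the least affected binding proteins. Igfbp2, abundant in fetal tissue, read 2232 and 1862 before serum in Cycle 1 and 1547 and 1629 in Cycle 2, and 868 to 1331 and 702 to 930 at 19 to 27 h. Over the shared hours these groups did not overlap. At 24.5 h of Cycle 1, an hour that Cycle 2 lacks, Igfbp2 read 1607, above the lowest starved value, 1547 in Cycle 2. The change of -0.99 (SE 0.11) at 19 to 27 h stood just short of 1. It was called over the shared hours through its change of -1.18 at 24 h. Igfbp6, which prefers IGF2 and lies on chromosome 15 (101974793-101979942, plus strand, NCBIM37), read 912 and 737 in starved cells of Cycle 1 and 296 and 367 in those of Cycle 2. It stood at 1208 at 2.5 h of Cycle 1 and at 629 at 5 h of Cycle 2. Over both Cycles the change was 0.49 (SE 0.22, adjusted p = 0.0655 in limma) at 2.5 h and 0.56 (SE 0.22, adjusted p = 0.0342) at 5 h. The Cycle 2 library at 5 h had the lowest balance of long against short transcripts of that Cycle, -0.25 on the log2 scale. By 19 to 27 h its values were 343 to 643 and 226 to 304, and the change was -0.61 (SE 0.14, adjusted p = 0.000353 in limma). Both genes have short transcripts, of 1307 and 1112 bases. In the 7 libraries of Cycle 1 poor in long transcripts, Igfbp2 had a median of 1227 and Igfbp6 of 601, and in the other 21 libraries of Cycle 1 between 12 h and 27 h the medians were 973 and 449. With each library's trend over transcript length and GC content removed, an alternative chosen after seeing the data, the changes at 19 to 27 h were -1.34 for Igfbp2 and -0.98 for Igfbp6, and Igfbp2 was then called. Igfbp6 was then called over the shared hours, at -1.13. Igfbp2 was also called at 19 to 27 h without the 0 h library of Cycle 1 (-1.03), without the -1 h library of Cycle 2 (-1.01) and in Cycle 2 alone (-1.00).

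**Figure D3:**
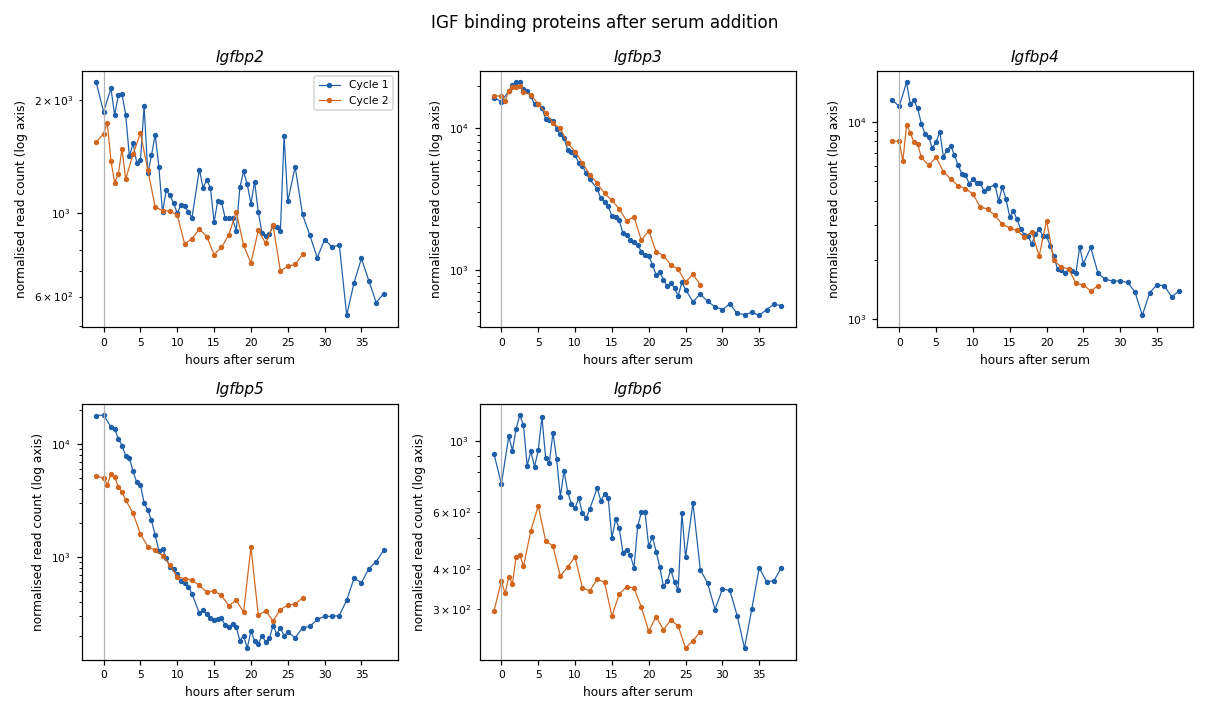
Normalised read count of the 5 binding protein genes in every library against hours after serum, on log axes, with Cycle 1 in blue and Cycle 2 in orange. Igfbp3, Igfbp4 and Igfbp5 fell in both Cycles, and the isolated high point of Igfbp5 in Cycle 2 is the 20 h library at 1225. In Cycle 1, Igfbp5 climbed again to 1145 at 38 h.

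These unequal declines changed the make-up of the binding protein transcripts. Summed over the 5 genes, the normalised read count went from 49340 (SD 1678, n = 2) in starved cells of Cycle 1 to 4675 (SD 837, n = 9) at 19 to 27 h, and from 31971 (SD 81.6, n = 2) to 4556 (SD 1153, n = 9) in Cycle 2. The sum for both ligands went from 69699 to 23237 in Cycle 1 and from 34313 to 12096 in Cycle 2. Counted per kilobase of transcript, Igfbp3 made up 37.0% of the 5 in starved cells of Cycle 1 and 53.1% in Cycle 2, and 13.7% and 21.0% at 19 to 27 h. Its share was first higher, at 44.5% and 57.0% at 1 to 3 h. Igfbp5 went from 16.8% to 1.39% in Cycle 1 and from 6.47% to 3.12% in Cycle 2. The share of Igfbp2, which itself did not rise, went from 8.75% to 31.0% in Cycle 1 and from 9.22% to 27.1% in Cycle 2, by way of 8.19% and 7.26% at 1 to 3 h. Igfbp4 held 33.4% and 29.0% in starved cells and 38.2% in both Cycles at the end. The shares are a description and were not tested.

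**Figure D4:**
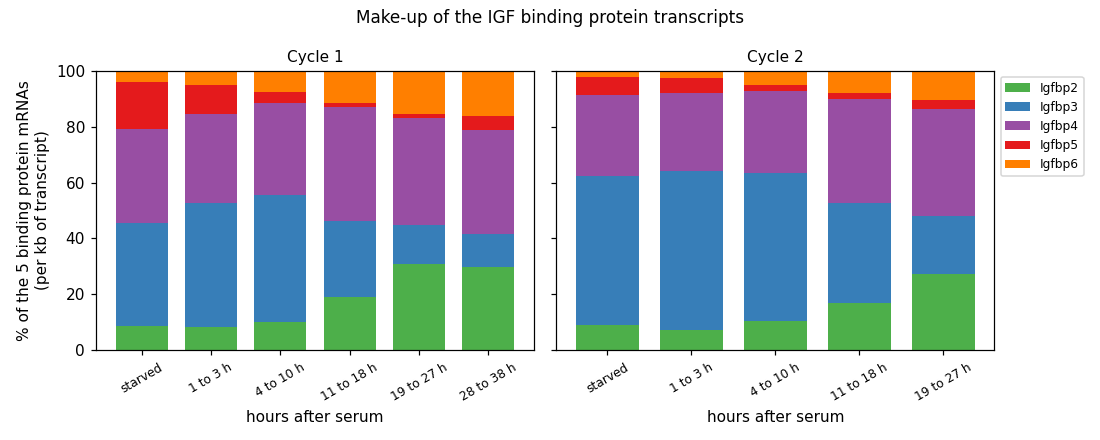
Share of each binding protein gene in the summed level of the 5, per kilobase of the longest annotated coding transcript, in starved cells and in windows after serum (mean over libraries, in percent, stacked to 100). Between starved cells and 19 to 27 h, Igfbp3 and Igfbp5 lost share while Igfbp2 and Igfbp6 gained it in both Cycles, with Igfbp2 at 31.0% and 27.1% at 19 to 27 h.

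The stretch of 250 bases before the transcription start was read from RefSeq promoters of the build GRCm38.p6, which cover all 10 genes with 14 starts. It is shown for Igfbp4 (chr11:99040994-99041243, plus strand) and Igfbp5 (chr1:72874866-72875115, minus strand), as binding proteins that fell at a steady pace and, over both Cycles, the furthest, 5′ to 3′, and capitals mark the TATA box letters TATAAA, searched on both strands.
Igfbp4: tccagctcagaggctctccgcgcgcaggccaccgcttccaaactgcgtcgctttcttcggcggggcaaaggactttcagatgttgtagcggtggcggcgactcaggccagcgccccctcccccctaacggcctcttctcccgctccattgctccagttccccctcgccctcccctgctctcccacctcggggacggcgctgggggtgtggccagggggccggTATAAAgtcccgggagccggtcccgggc
Igfbp5: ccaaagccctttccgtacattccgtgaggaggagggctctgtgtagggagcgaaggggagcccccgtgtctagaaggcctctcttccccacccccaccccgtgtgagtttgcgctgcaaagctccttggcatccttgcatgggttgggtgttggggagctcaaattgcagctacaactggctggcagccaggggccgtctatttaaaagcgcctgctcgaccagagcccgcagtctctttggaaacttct
The letters begin at base -28 from the start in Igfbp4. They were not in this window of Igfbp5, and were in Igfbp6 at base -148. Of 32851 RefSeq promoters of this length, 12.4% hold them.

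Irs1, the adaptor that couples the receptor to PI3-kinase, was lower from 1 h on (-1.22, SE 0.22, adjusted p = 0.000168 in limma). The gene is on chromosome 1 (82229676-82287991, minus strand, NCBIM37). It read 1066 and 1189 before serum in Cycle 1 and 645 and 598 in Cycle 2. At 1 h it was already down to 392 and 327, and at 2.5 h to 58.8 and 93.3. The trough was 58.8 at 2.5 h in Cycle 1, 19.2-fold below the starved mean, and 64.8 at 5 h in Cycle 2, 9.60-fold below. Within each Cycle, all libraries from 1 h to 27 h were below both starved libraries. Across the Cycles, 605 at 23 h and 622 at 24 h of Cycle 1 were above 598, the 0 h value of Cycle 2. The change was -2.55 (SE 0.15, adjusted p = 3.45e-15 in limma) at 1 to 3 h and -2.59 (SE 0.15, adjusted p = 2.96e-16) at 4 to 10 h. Irs1 then climbed back in part, to 352 to 577 in Cycle 1 and 313 to 386 in Cycle 2 at 11 to 18 h, where the change was -1.10 (SE 0.14). This last call was lost without the 0 h library of Cycle 1 (-0.97), in Cycle 2 alone (-0.82) and with the length and GC trend removed (-0.88). At 19 to 27 h the change was -0.83 (SE 0.14, adjusted p = 6.58e-06), below the size required, and in Cycle 1 alone it was -1.09, which was called.

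Irs2, the second adaptor and a known target of forkhead factors in starved tissue, moved the other way at the start. Its position is chromosome 8 (10986980-11008458, minus strand, NCBIM37). The starved libraries already differed, with 105 at -1 h and 395 at 0 h in Cycle 1, a ratio of 3.75, and 119 and 255 in Cycle 2, a ratio of 2.14. The highest value stood at 1.5 h in both Cycles, at 625 and 425, above all 4 starved libraries. The change at 1.5 h was 1.44 (SE 0.49, adjusted p = 0.0243 in limma) and the mean over 1 to 3 h was 0.81 (SE 0.33, adjusted p = 0.0398), short of the size required. Without the 0 h library of Cycle 1 it was 1.23 and was called. Against the 0 h libraries alone the mean over 1 to 3 h was 0.07, and the later windows reached -1.00, -1.28 and -1.36, all called, so the size of the mean over 1 to 3 h depends on the -1 h libraries being part of the baseline. At 1 h and 1.5 h, Irs2 was above the 0 h library of its Cycle in both Cycles, with 524 and 625 in Cycle 1 and 366 and 425 in Cycle 2. At 11 to 18 h the values were 38.2 to 184 in Cycle 1 and 101 to 196 in Cycle 2. Between 12 h and 27 h of Cycle 1, the median of Irs2 was 63.7 (38.2 to 157) in the 7 libraries poor in long transcripts and 125 (73.5 to 191) in the other 21. The ranges overlapped, and 157 came from 24.5 h, the library poorest in long transcripts. With the length and GC trend removed, the change at 11 to 18 h was -0.63, beside -0.53 without that step.

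**Figure D5:**
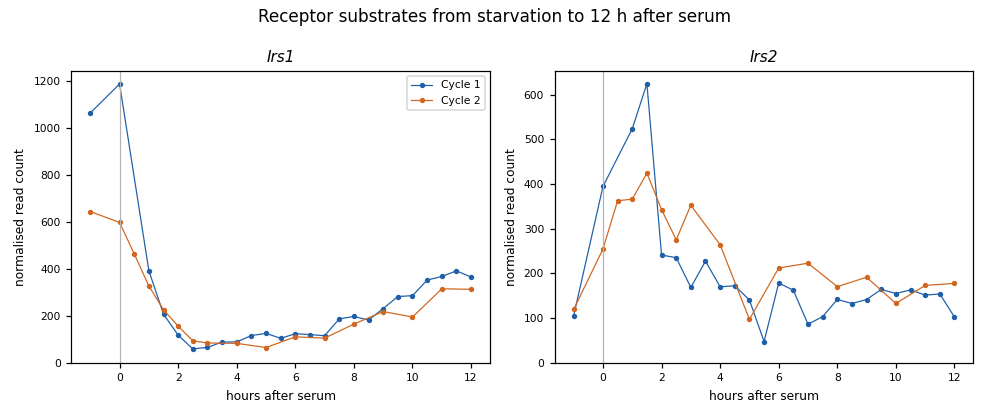
Normalised read count of Irs1 and Irs2 from -1 h to 12 h on linear axes, each point 1 library, Cycle 1 in blue and Cycle 2 in orange. Irs1 dropped below 100 by 2.5 h in both Cycles, while Irs2 rose from -1 h to a peak at 1.5 h of 625 and 425 and then fell back.

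The promoters of Irs1 (chr1:82291440-82291689, minus strand) and Irs2 (chr8:11008930-11009179, minus strand) are given because these adaptors, which differ in their opening hours, share letters there. Capitals mark the E-box CACGTG, a palindrome that reads the same on both strands.
Irs1: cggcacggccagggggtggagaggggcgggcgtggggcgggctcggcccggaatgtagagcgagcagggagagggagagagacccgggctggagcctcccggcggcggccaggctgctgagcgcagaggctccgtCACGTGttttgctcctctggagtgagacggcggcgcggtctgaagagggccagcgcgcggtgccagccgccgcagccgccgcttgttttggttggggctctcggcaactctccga
Irs2: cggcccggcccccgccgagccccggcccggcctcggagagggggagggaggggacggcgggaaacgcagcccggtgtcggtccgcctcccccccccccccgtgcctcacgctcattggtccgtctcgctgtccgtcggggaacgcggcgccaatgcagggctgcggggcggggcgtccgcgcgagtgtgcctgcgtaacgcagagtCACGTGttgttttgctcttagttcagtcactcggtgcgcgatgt
The E-box begins at base -115 in Irs1 and at base -44 in Irs2. Of all 32851 promoters of this length, 6.02% hold CACGTG, among them 3 of the 10 members, the other one being Igfbp2 at base -142 of 1 of its starts. The longest runs common to both windows were 2 of 10 bases, GTCACGTGTT and TGTTTTGCTC, which 21 and 19 of 32849 other promoters also hold on either strand. These runs overlap, beginning at bases -117 and -111 in Irs1 and at -46 and -37 in Irs2. They were picked as the longest of this pair, and how long a run other pairs of promoters share was not tested. The forkhead letters GTAAACA (3.17% of promoters) and the cAMP response element TGACGTCA (1.55%) were in none of the members' windows. CCAAT (33.8% of promoters) was in windows of 4 members, GGGCGG (32.7%) in 5 and TGANTCA (6.75%) in 2. The percentages are over single starts, whereas a member was counted when any of its starts had the letters, so the 2 are not like measures. Such matches are descriptions of letters.

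A difference between the Cycles was called for 2 of the 10 members. The fit had 1 mean per Cycle and window, with the hours of a window standing in for replicates, and a call needed a difference above 1 in some window and an adjusted p under 0.05 in the F test over 4 windows, which 13.2% of all rows met. For Igfbp5 the change at 19 to 27 h was deeper in Cycle 1 than in Cycle 2 by 2.73 (log2, written as Cycle 1 minus Cycle 2 -2.73, SE 0.62, adjusted p = 1.24e-05 in limma). For Igf1 the difference was -1.23 (SE 0.40, adjusted p = 0.0201). Both genes started higher in Cycle 1, by 3.52 and 2.04 times, and at 27 h the ratio of Cycle 1 to Cycle 2 was 0.543 and 0.944. When Cycle 2 was set 1 h later, the difference of Igf1 kept its size at -1.26 but was no longer called (adjusted p = 0.059), while that of Irs1, -1.11 (SE 0.60) at 1 to 3 h with matched hours, became -1.91 and was called. Igf2 was 2.03 times higher in starved Cycle 1 and still 1.89 times higher at 27 h, and its changes differed by at most 0.08 (SE 0.18, adjusted p = 0.885). Igfbp6 was higher in Cycle 1 at 29 of 29 shared hours, and its change differed by -0.62 (SE 0.25) at 11 to 18 h (adjusted p = 0.00578), short of the size required.

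From 28 h to 38 h, sampled in Cycle 1 only and not tested, most members stayed low. Igf2 ranged from 14892 to 19768 and Igfbp3 from 476 to 596, on average 0.250 and 0.0332 of the starved level. Igfbp4 ranged from 1048 to 1592. Igfbp2 ranged from 535 to 874, Igfbp6 from 226 to 403 and Irs2 from 93.2 to 175. These were on average 0.352, 0.408 and 0.538 of the starved level. Igfbp5 moved up, from 243 at 28 h to 416 at 33 h, 789 at 36 h and 1145 at 38 h, still far below 18002, its starved mean. Irs1 reached 1112 at 36 h, 0.986 of its starved mean, and read 868 at 38 h. Igf1r ranged from 1233 to 1674, all above the starved libraries of Cycle 1. At 34 h, 35 h and 36 h the balance of long against short transcripts was 0.30, -0.095 and 0.27 on the log2 scale. Igf1r read 1674, 1257 and 1414 in these libraries, and Irs1 read 544, 676 and 1112. The part of this balance in the late values was not tested. Igf1 read 72.5 to 98.8 up to 36 h and then 119 and 125.

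Among 20 other genes of the IGF system, 16 were in the table. Over the shared hours 2 were called with a rise and 8 with a fall as largest change, beside 15.5% and 37% of all rows, and at 19 to 27 h 0 were higher and 3 lower, beside 6.66% and 18.7%. The median change of the list at 19 to 27 h was -0.48, beside -0.16 over all rows. Stc1, which encodes stanniocalcin 1, an inhibitor of PAPP-A, was the one called higher in windows, with 2.31 (SE 0.18) at 1 to 3 h and 2.63 (SE 0.18) at 4 to 10 h, before it read -0.93 (SE 0.17) at 19 to 27 h. H19, the imprinted non-coding RNA transcribed beside Igf2, changed by -1.96 (SE 0.17, adjusted p = 1.19e-11 in limma) at 19 to 27 h. Its starved values were 94653 and 106962 in Cycle 1 and 62654 and 62765 in Cycle 2. Igf2r, the receptor that clears IGF2, changed by -1.43 (SE 0.17) at 11 to 18 h. Pappa2, a protease that cleaves IGFBP3 and IGFBP5, changed by -1.55 (SE 0.16) at 11 to 18 h, at values of 8.83 to 31.2 after 44.7 to 66.7 in starved cells.

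Of 40 genes of signalling below the receptors, all 40 were in the table, and 4 were called with a rise and 13 with a fall as largest change, beside 15.5% and 37% of all rows. At 1 to 3 h 0 were higher and 6 lower, beside 5.3% and 11.8%. In the last window, 19 to 27 h, 2 were higher and 5 lower, beside 6.66% and 18.7%, with a median change of -0.32 beside -0.16 over all rows. Pik3r1, the regulatory subunit that docks on IRS proteins, changed by -1.73 (SE 0.15, adjusted p = 2.39e-11 in limma) at 1 to 3 h and stayed at -1.51 (SE 0.14) at 19 to 27 h. Gab1, another docking protein, changed by -1.84 (SE 0.12) at 4 to 10 h. Trib3, a pseudokinase that binds AKT, changed by -1.98 (SE 0.15) at 11 to 18 h. Deptor, an inhibitor of mTOR, changed by -2.31 (SE 0.43) at 4 to 10 h, where it read 2.13 to 30.5 in Cycle 1 and 2.23 to 12.9 in Cycle 2.

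The courses most like those of the members were found among 9112 rows with a mean of at least 100, by the smaller of the Pearson correlations over the 63 libraries of Cycle 1 and the 32 of Cycle 2. Neighbouring hours are not independent, so these are descriptions. Igf2 was closest to Egfl6 and C3, both at 0.99. Igfbp3 was closest to Serpina3n and Mmp2, and Igfbp4 to Cpxm1 and Mmp2, all at 0.99. Igfbp5 was closest to Sepp1 and Agtr2, both at 0.98, Igf1 to Col3a1 and Postn, both at 0.97, and Irs1 to Nacc2 and Gpd1l, both at 0.95. Igfbp2 was closest to Htra1 at 0.92 and Hp at 0.91. Irs2 had the weakest likeness, to Klf9 and Sash1, both at 0.81. No member was among these closest genes of another member.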

How the data were processed

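Poly(A) RNA of 96 labelled libraries was prepared with a stranded kit and sequenced as single 50-base reads. Per the labels and the study's methods, the authors used CASAVA, aligned to mm9 with STAR and counted exon reads on both strands with HOMER, so antisense transcripts cannot be told apart. The deposited values are a signal: exon reads scaled to 10000000 per library. Of 15895 rows, 12604 hold 1 transcript and the rest, Igf1 and Igf2 among them, averages over transcripts. Not used was 1 of the 96 columns, whose name fits no library title. The depth came from the size of 1 read in rows of 1 transcript. Low values there were whole multiples of it, within 0.1, for 99.8% to 100% of values per library. Over all rows the share was 94.2% to 98.8%.

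The log2(value + 1) of 62 libraries was fitted in limma 3.58.1 (R 4.3.3) with hour and Cycle as terms, which left 31 residual degrees of freedom, and with trend and robust off. Calls needed a Benjamini-Hochberg adjusted p under 0.05 over all rows and a log2 change above 1. Cycle was kept as a block because the labels make it 1 time course each: over 406 pairs of shared hours, the difference between the Cycles at 1 hour was correlated across rows with that at another, with a median of 0.47 and a lowest value of -0.20, and 365 pairs were above 0.1. A quasi-likelihood test of edgeR 4.0.16 on the recovered reads, rounded to whole numbers, called 2232 rows higher and 6012 lower over the shared hours. Other alternatives covered pseudocounts, filters on low values, scaling, baseline and libraries left out. The limma fit was also run on simulated counts, drawn without a difference between the Cycles and without dependence between hours. Such counts cannot show how the p-values behave where hours are not independent, and no conclusion is drawn from them. Lengths and NCBIM37 positions come from GENCODE vM1, and promoters from RefSeq. Levels per kilobase use the longest annotated coding transcript, which may not be the one counted. The genes named are the 10 members, up to 4 called genes of each of the 2 further lists with the largest change in a window, and the 2 most similar rows of each called member. Members and lists were chosen with earlier results of these data known. Figures were drawn with matplotlib 3.10.9. Intervals were not computed, and SEs cover the spread between libraries.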

Additional observations from a re-analysis of the deposited data

Results flagged for a closer look

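The change after serum differed between the Cycles for 2 of the 10 members by the test of the difference itself, beside 13.2% of all rows. For Igfbp5 it was deeper in Cycle 1 at 19 to 27 h by -2.73 on the log2 scale, and without the Cycle 2 library at 20 h by -2.53. For Igf1 it was deeper in Cycle 1 by -1.23, and by -1.14 without that library. The Igf1 difference was no longer called when Cycle 2 was set 1 h later. Both differ between the starved cells of the 2 Cycles as well, and the part of the starting level in the difference was not tested. In none of the 10 members did 1 of the 4 starved libraries stand apart from the other 3 by Dixon's criterion. The criterion pooled both Cycles, so where the Cycles start apart, as for Igfbp5, the values form 2 pairs. It cannot single out 1 library there, and no conclusion is drawn from it. Irs2 passed it as well, although its libraries at 0 h and -1 h differed by a ratio of 3.75 in Cycle 1 and 2.14 in Cycle 2.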

How the results depend on the processing

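Counts of called members moved little. Without the replicate block for Cycle, 7 members were called over the shared hours instead of 8, since Igf2 was lost (adjusted p = 0.143, its change still -1.77), and the window counts were 1, 3, 5 and 5 as with the block. With the length and GC trend removed, 9 were called over the shared hours, Igfbp6 being added. At 1 to 3 h the count went from 1 to 2 with TMM factors, through Irs2 (1.03), and lay between 1 and 2 when single starved libraries or either Cycle were left out. TMM factors moved all changes at 1 to 3 h up by 0.22, so that Igf2 (0.17), Igf1r (0.067) and Igfbp2 (0.065) turned positive there, and turned the split of all rows called from 843 higher and 1870 lower into 1131 and 1136. At 19 to 27 h, 1059 rows were higher and 2975 lower, and with a mean of at least 100 they were 681 and 765, with pseudocount 10 736 and 1670. The hour of the largest change of Irs2 went to 14 h, with a fall of -2.03 against the 0 h libraries and -1.32 in edgeR. When single starved libraries were left out, the largest change of Irs2 lay between -1.57 and 1.86. It was a fall at 14 h without starved replicate 1 or 3, and a rise at 1.5 h without starved replicate 2 or 4. The largest change of Igf1r lay between -0.74 and 0.76 in such fits, at -0.73 without starved replicate 1 or 2. That of Igfbp6 lay between -0.91 and 0.69 in such fits, and was 0.76 with TMM factors. Irs2 without starved replicate 1 gave -1.51. Small window changes also turned sign: Igfbp4 at 1 to 3 h (-0.049 to 0.074 with single libraries or a Cycle left out, -0.11 with the length and GC trend removed), Igfbp6 at 4 to 10 h (-0.0087 in Cycle 1 alone, 0.51 in Cycle 2 alone, -0.054 with the trend removed) and at 11 to 18 h (-0.56 and 0.055), and Irs2 at 4 to 10 h (between -0.54 without the -1 h library of Cycle 2 and 0.17 without the 0 h library of Cycle 1). The cause was not tested. Leaving out libraries poor in long transcripts, or the Cycle 2 library at 20 h, was chosen after seeing the data, and kept all window counts within 1 of those given. Each hour rests on 1 library per Cycle, and the value of Igf1 with the fewest reads stood for 26.8 of them.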

Other observations

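The library at 0.5 h of Cycle 2 has no partner in Cycle 1 and entered no comparison. In it Irs1 read 464, between 598 at 0 h and 327 at 1 h, and Irs2 read 363, between 255 and 366. Igfbp4 read 6318, below 7976 at 0 h and 9685 at 1 h, and Igf2 read 28837, below 31891 and 34041. Igf1r read 982 and Igfbp3 15584.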
